A study of Mus musculus with 9 samples.

Results

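Heat shock proteins and their partner chaperones were followed in the tibialis anterior, a fast muscle of the lower leg, of male C57BL/6J mice. The genes were taken by symbol, as those named Hspa, Hspb, Hsph, Hsp90, Hspd1, Hspe1, Dnaja, Dnajb, Dnajc, Cct or Bag with a number, and Cryab. This gave 81 of the 14300 protein-coding genes present in both deposited tables, and Dnajc6 and Hspb9 in addition in the table of ORX and ORX+DHT only. The list of names was chosen with earlier results of these data known. There were 3 groups of 3 libraries, sampled 4 weeks after treatment. Control mice had no orchiectomy in the labels, ORX mice had been orchiectomised (both testes taken out), and ORX+DHT mice had been orchiectomised and received dihydrotestosterone (DHT), an androgen that testosterone is converted to. The labels call the libraries biological replicates and give no age or dose, and they do not say whether an RNA sample came from 1 mouse or several. The deposited columns of the Control group are called sham.

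Chaperones bind unfolded or strained proteins, and they work in families with distinct roles. Small heat shock proteins hold misfolding proteins without using ATP, and several of them sit at the Z-disc and on the desmin and actin network of striated muscle. Hsp70 proteins bind and release clients in an ATP cycle that J-domain proteins (Dnaj genes) start and that Hsp110 and BAG proteins reset, Hsp90 proteins mature kinases and steroid receptors, the androgen receptor among them, and the chaperonins fold proteins inside a ring. Many of these genes are switched on in heat and stress by the transcription factor Hsf1, which binds repeats of the unit GAA and its reverse, TTC.

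The promoters of the genes that the results turn on are shown for those repeats. RefSeq promoter windows (GRCm38.p6, 250 bases before to 50 bases after a start) were matched by symbol for 67 of the members. Of the genes described below as higher in ORX+DHT than in ORX, Hspb1, Hspb6 and Dnajc27 had a window in that table, while Hspb2 and Cryab did not. Each of those windows held the motif of 2 facing units, GAANNTTC (searched on both strands and its own reverse complement), which is in capitals. Hspb1 held it at 2 places, from positions −117 and −97 relative to the start, in its 250 bases upstream on the plus strand (chr5:135887669-135887918), where no exon is annotated.
Hspb1: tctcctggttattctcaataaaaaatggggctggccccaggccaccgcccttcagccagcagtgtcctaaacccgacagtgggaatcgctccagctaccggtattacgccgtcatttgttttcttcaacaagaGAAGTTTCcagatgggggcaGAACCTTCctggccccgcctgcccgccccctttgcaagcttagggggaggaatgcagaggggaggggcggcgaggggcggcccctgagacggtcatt

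The other promoters are given as the 30 bases around the motif, 5′ to 3′ on the gene's strand. Hspb6 (plus strand, chr7:30553170-30553199) and Dnajc27 (plus strand, chr12:4082350-4082379) each held 1 match of the shorter motif. The 250 bases before the RefSeq start of Hspb6 overlap an exon annotated to Hspb6 in GENCODE, whose outermost start (30552178) lies further upstream, so the match is inside the annotated gene, while those of Dnajc27 overlap no annotated exon.
Hspb6: aagtaattattGAAGTTTCtaaataaggaa
Dnajc27: cacccatcggtGAAGATTCcaggaaaaaaa

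The longer motif of 3 alternating units (GAA, TTC and GAA, each 2 bases apart, on either strand) overlaps the shorter one wherever it occurs. It was found in the windows of Hspd1 and Hspe1, which share 1 stretch read from opposite strands (chr1:55088050-55088079 for Hspd1 on the minus strand and chr1:55088051-55088080 for Hspe1 on the plus strand), of Dnajb6 (plus strand, chr5:29735844-29735873) and of Hsph1 (minus strand, chr5:149636287-149636316). In these genes the 250 bases upstream overlap exons annotated to Hspd1 and Hspe1, to Dnajb6 and Gm5129, and to Hsph1. The Hsph1 match itself lies after the start. Bases in capitals belong to any match of either motif.
Hspd1: gccTTCCGGAAGGTTCTAGAAcggaccgtg
Hspe1: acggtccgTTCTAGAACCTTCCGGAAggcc
Dnajb6: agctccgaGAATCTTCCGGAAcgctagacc
Hsph1: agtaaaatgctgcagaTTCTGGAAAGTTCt

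These 4 genes, of which Hspd1 and Hspe1 share a stretch, are 5.97% of the 67 members with a window. The share was 0.662% of all 27025 genes with a RefSeq window, a wider set than the genes of the deposited tables. The shorter motif was in 15 members (22.4%), against 9.04% of all genes. Apart from Hspb1, Hspb6 and Dnajc27, they were Bag3, Cct2, Dnaja1, Dnaja4, Dnajb6, Hspa1a, Hspa1b, Hspb3, Hspb8, Hspd1, Hspe1 and Hsph1. None of these others was called in a comparison below. The palindrome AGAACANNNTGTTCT, a strict form of the androgen response element that was searched on both strands, was in 0 members and in 0.0111% of all genes. A match is a description of these letters and not a bound site. None of the 4 genes with the longer motif passed the test in any comparison below.

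The libraries held 1340209 to 1682235 reads on the listed genes, and 12398 to 13000 genes had a read. Fast muscle markers (8 of 8 found) summed to 261084 to 354071 normalised counts in every library and slow fibre markers (8 of 8) to 199 to 371. Control replicate 1 stood apart from the other 8 libraries, with a score of 47.2 on the first principal component (30.7% of the variance) against −10.6 to −0.72. It was the highest of the 9 libraries for 27.3% of all genes tested and for 37 of the 71 tested chaperone genes (52.1%). The share was 60.6% among genes with under 3 kb of exon and 17.5% among longer ones. The fold changes of single genes in ORX versus Control, and the counts of genes called, are therefore given with and without that library. All levels below are normalised counts on 1 scale for the 9 libraries, and fold changes are differences of log2(normalised count + 1). A gene was tested if its mean normalised count was at least 10 in the comparison, and it was called at an adjusted p under 0.05 from limma with Benjamini-Hochberg adjustment over all genes.

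Levels were compared between genes as normalised counts per kb of exon, averaged over the 9 libraries. The highest belonged to the small heat shock protein Hspb6 (Hsp20), at 757 per kb, and the cytosolic Hsp90 gene Hsp90ab1 followed at 659 per kb. Cryab (αB-crystallin, a desmin chaperone) stood at 542 per kb. Hspb8, the partner of Bag3 in clearing damaged Z-disc proteins, stood at 291 per kb, Hspb7 at 207 per kb and Hspb1 (Hsp27) at 77.7 per kb. The mitochondrial Hsp70 gene Hspa9 led its family at 241 per kb, ahead of the constitutive cytosolic Hspa8 at 203 per kb.

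In the remaining families the leading genes per kb were Bag1 at 196 per kb, Dnaja2 at 135 per kb and the mitochondrial chaperonin gene Hspd1 at 98.7 per kb. Cct5, a subunit of the cytosolic chaperonin ring, stood at 72.3 per kb, Dnajb5 at 52.2 per kb, Hspa4 of the Hsp110 family at 42.4 per kb and Dnajc27 at 40.3 per kb. With the length of the longest transcript in place of all exons, Dnajc7 led the Dnajc genes at 81.1 per kb and the other leaders were the same. Of the stress-inducible genes, Hsp90aa1 stood at 12.6 per kb and Dnajb1 at 3.57 per kb, while the near-identical copies Hspa1a and Hspa1b, whose reads a counter may split, stood at 0.897 and 1.21 per kb. Hspa1a had 23 reads and Hspa1b 30 reads over the 9 libraries.

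**Figure D1:**
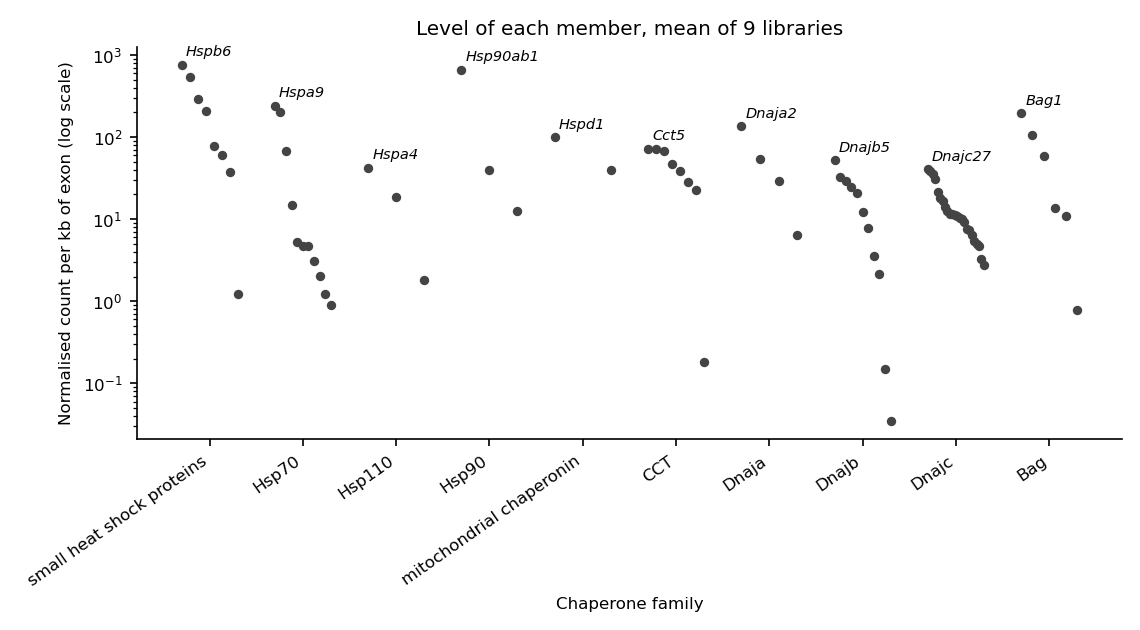
Level of each member as normalised count per kb of exon (log scale, mean of the 9 libraries), 1 point per gene, grouped by family with the highest gene of each named. Hspb6 at 757 and Hsp90ab1 at 659 per kb are the highest points.

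Of the 81 genes, 10 were too low for a test, among them Bag4, Cct6b, Dnajb7, Dnajb13, Dnajc17, Dnajc24, Hspa1a, Hspa1b and Hspb11. Dnajc6 and Hspb9 had reads in at most 2 of the libraries of the table that lists them. The remaining 71 entered each comparison.

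In all, 5 chaperone genes were higher in ORX+DHT than in ORX and none was lower, and 4 of them were small heat shock proteins. Hspb1, which caps and protects actin filaments, rose 1.54-fold, and Hspb2, a partner of the myotonic dystrophy kinase, rose 1.52-fold. Cryab and Hspb6 each rose 1.26-fold. The J-domain gene Dnajc27, which encodes a small Rab-like GTPase with a J domain, rose 1.31-fold. The 5 called are of 71 tested, beside 4.08% called over the 8770 genes of this comparison (2.38% higher and 1.7% lower). At an unadjusted p under 0.05 there were 13 members, beside 14.3% of all genes.

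Hspb1 (chr5:135887919-135889563, plus strand) stood at 53.0, 58.0 and 52.9 normalised counts in the ORX libraries and at 81.1, 101 and 74.1 in the ORX+DHT libraries. Every ORX+DHT library was above every ORX library. The means were 54.6 ± 2.90 and 85.2 ± 13.7 (SD, n = 3 each), a log2 difference of 0.62 (SE 0.15, limma adjusted p = 0.0204). Hspb2 (chr9:50751078-50752354, minus strand) stood at 36.3, 36.7 and 33.1 in ORX and at 59.8, 49.3 and 54.3 in ORX+DHT. Its groups did not overlap either, and its log2 difference was 0.61 (SE 0.16, limma adjusted p = 0.0456).

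Cryab (chr9:50751325-50756636, plus strand) stood at 714, 599 and 624 in ORX and at 880, 785 and 778 in ORX+DHT. The groups were apart, with the highest ORX library below the lowest ORX+DHT library, and the log2 difference was 0.34 (SE 0.09, limma adjusted p = 0.0384). Cryab and Hspb2 lie on opposite strands of chromosome 9 with their annotated 5′ ends overlapping, the outermost starts 1029 bases apart. The libraries were made with a stranded kit, but whether reads were counted by strand is not given in the sources used here, so reads of the shared exons cannot be told apart if they were not. The Hspb2 count was 5.09% to 7.23% of the Cryab count in every library.

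Hspb6 (chr7:30552178-30555443, plus strand) stood at 1621, 1377 and 1481 in ORX and at 2063, 1846 and 1720 in ORX+DHT. No ORX library reached the lowest ORX+DHT library, and the log2 difference was 0.33 (SE 0.09, limma adjusted p = 0.038). Its exons overlap those of Lin37 and Proser3 on the opposite strand and those of Gm38670 on the same strand. Dnajc27 (chr12:4082583-4110606, plus strand) stood at 181, 165 and 206 in ORX and at 233, 248 and 238 in ORX+DHT. The ORX+DHT libraries lay close together and above all ORX libraries, with a log2 difference of 0.39 (SE 0.10, limma adjusted p = 0.0438).

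The other small heat shock protein genes did not pass the test. Hspb7, a small heat shock protein of heart and skeletal muscle, stood at 559, 472 and 369 in ORX and at 727, 573 and 445 in ORX+DHT, with overlapping groups. Hspb8 stood at 546, 522 and 448 in ORX and at 547, 606 and 535 in ORX+DHT. Hspb3, which assembles with Hspb2, stood at 30.4, 25.6 and 19.0 in ORX and at 23.3, 23.2 and 25.7 in ORX+DHT, the only one of the 7 tested with a mean below that of ORX. In all, 4 of the 7 tested small heat shock protein genes were called and 6 of 7 were above 0, with a median log2 difference of 0.33. The same median was 0.05 over all 71 chaperone genes and 0.0062 over all genes tested. Outside the small heat shock proteins, 1 of 64 was called.

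**Figure D2:**
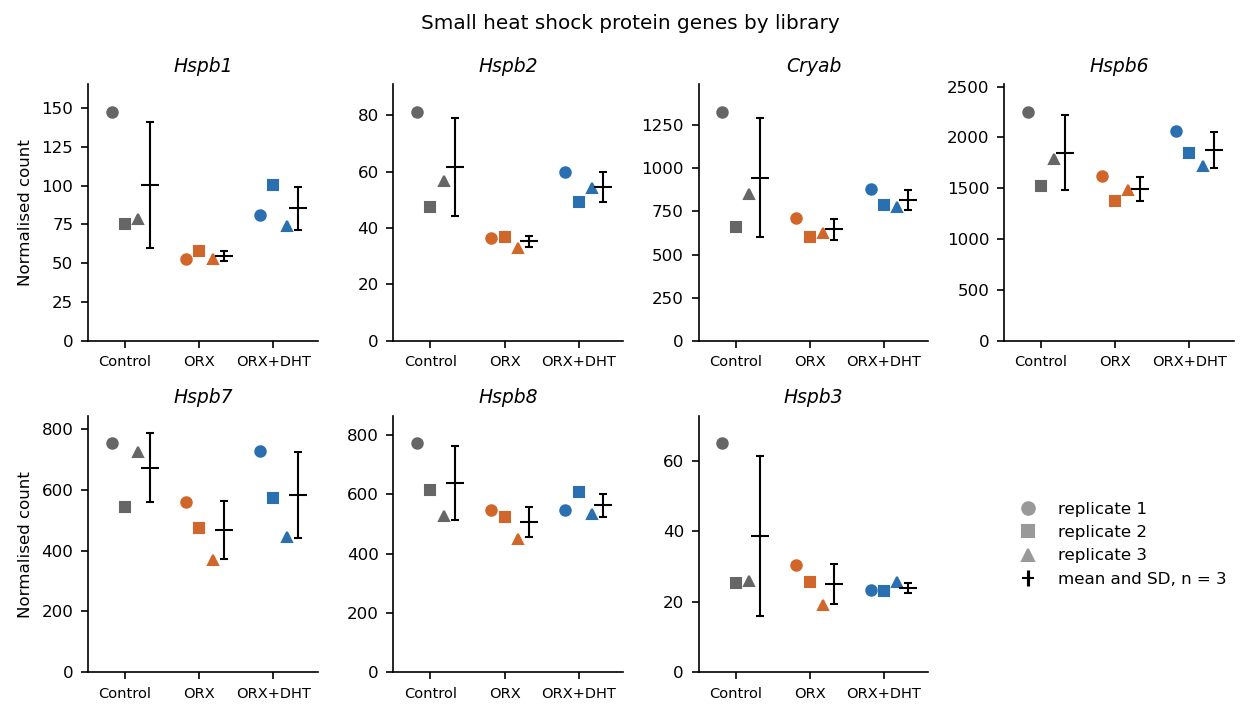
Normalised counts of the 7 tested small heat shock protein genes in each library (points, shaped by replicate number) with the mean and SD of each group (n = 3). Control replicate 1 is the highest of the 9 libraries in every panel, and for Hspb1, Hspb2, Cryab and Hspb6 the ORX+DHT points lie above all ORX points.

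These calls sat close to the threshold and depended on single libraries and on the tool. Leaving out ORX+DHT replicate 1 or ORX+DHT replicate 2 left 0 of the 5 called by limma, with 10 and 11 members at an unadjusted p under 0.05, beside 12.2% and 13.2% of all genes. Without ORX replicate 1, Cryab (adjusted p = 0.0111) and Hspb6 (0.0158) were called, and without ORX replicate 2 only Hspb1 (0.045). Without ORX replicate 3, Hspb1 (0.0489) and Dnajc27 (0.0148) were called, and without ORX+DHT replicate 3, Hspb1 (0.0186) and Hspb6 (0.031). Quantile scaling left Hspb1 alone. On recovered reads edgeR called all 5 (adjusted p from 0.0191 to 0.0483) and DESeq2 called 0, with 6 members at an unadjusted p under 0.05, beside 7.88% of all genes. In the fit of all 9 libraries together, whose spread includes Control replicate 1, limma called 0 members, with 7 at an unadjusted p under 0.05, beside 8.91% of all genes. All 5 genes had a positive log2 difference in each of the 16 alternatives, from 0.50 to 0.72 for Hspb1, from 0.51 to 0.68 for Hspb2, from 0.27 to 0.41 for Cryab, from 0.26 to 0.39 for Hspb6 and from 0.31 to 0.47 for Dnajc27.

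Some markers of the tissue's cell types also differed between the same groups. The endothelium, macrophage and leukocyte, smooth muscle, erythrocyte and clock gene lists had 0 called. The adipocyte and satellite cell markers were too low for a test. The fast muscle markers summed to 261084 to 272000 normalised counts in ORX and to 273605 to 297035 in ORX+DHT, with 2 of 8 called higher, Acta1 (log2 difference 0.47, limma adjusted p = 0.00357) and Myh1 (0.47, adjusted p = 0.00755), and the other 6 between −0.28 and 0.18. The fibroblast markers (4 of 4 found, none at 0 in all libraries) summed to 2784 to 3739 normalised counts in ORX and to 1671 to 2365 in ORX+DHT, where Col1a1 was called lower (−1.18, limma adjusted p = 2.89e-06), Col3a1 was at −0.46, and Dcn and Pdgfra were at −0.05 and 0.06. The slow fibre markers summed to 323 to 360 in ORX and to 199 to 285 in ORX+DHT. Of these, Myl3 was called lower (−0.75, limma adjusted p = 0.0166), and Tnnt1, Atp2a2 and Tpm3 were at −0.50, −0.11 and −0.13. The Schwann cell markers (3 of 3, 0 called) summed to 134 to 154 in ORX and to 89.2 to 124 in ORX+DHT. The immediate early gene list (8 of 8 found, Fos and Jun among them) summed to 196 to 300 in ORX and to 291 to 333 in ORX+DHT. Of its 5 tested genes 1 was below 0, and Jun was called higher (0.53, limma adjusted p = 0.0231). In Control this list summed to 244 to 341, with the 341 in replicate 1. The part of these lists in the differences of the chaperone genes was not tested. In whole muscle, fewer cells of a type and less RNA per cell cannot be told apart.

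The comparison of ORX with Control asks what removing the testes did, and 0 of the 71 chaperone genes were called by limma, beside 0.0579% of 8631 genes. An unadjusted p under 0.05 was found for 6 members (beside 7.21% of all genes), and edgeR and DESeq2 also called 0. The small heat shock protein genes were all below 0, 7 of 7, with a median log2 difference of −0.50. The median was −0.11 over all 71 chaperone genes and −0.0077 over all genes. All 7 have under 3 kb of exon, a class of 2016 tested genes with a median of −0.15 and 29.0% above 0. Hspb1 stood at 147, 75.2 and 78.5 normalised counts in Control, each above the 52.9 to 58.0 of ORX, for a log2 difference of −0.80 (SE 0.25, limma adjusted p = 0.536). Hspb2 stood at 81.2, 47.5 and 56.6 in Control, also above all ORX libraries, with a log2 difference of −0.75 (SE 0.22, limma adjusted p = 0.506).

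Cryab stood at 1325, 658 and 852 in Control and its groups overlapped, with a log2 difference of −0.49 (SE 0.22, limma adjusted p = 0.685). Hspb6 stood at 2250, 1520 and 1784 in Control, overlapping ORX, with a log2 difference of −0.30 (SE 0.17, limma adjusted p = 0.722). Control replicate 1 was the highest of the 9 libraries for all 8 small heat shock protein genes, Hspb11 included. Without it, the 7 tested were all below 0, with a median log2 difference of −0.22. For genes with under 3 kb of exon, the median without that library was not taken. Hspb1 was then at −0.49 (SE 0.16, limma adjusted p = 0.246), Hspb2 at −0.54 (SE 0.19, adjusted p = 0.296), Cryab at −0.22 (SE 0.12, adjusted p = 0.538) and Hspb6 at −0.15 (SE 0.10, adjusted p = 0.65). In that fit 0 of 70 members were called, beside 0.592% of 8609 genes, with 7 members at an unadjusted p under 0.05 (beside 10.6% of all genes).

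Over all families, the groups of 14 chaperone genes did not overlap in ORX versus Control, 3 with ORX higher and 11, Hspb1 and Hspb2 among them, with ORX lower, beside 14.3% of all genes without overlap (6.28% higher and 8.06% lower). Without Control replicate 1 these were 7 higher and 16 lower, beside 27.2% of all genes (12.3% higher and 14.9% lower). Dnajb6, a J-domain protein of the Z-disc that is mutated in a limb-girdle muscular dystrophy, stood at 40.0, 45.3 and 36.7 in Control, at 58.9, 52.9 and 61.2 in ORX and at 35.5, 43.5 and 57.3 in ORX+DHT. Its ORX libraries were all above Control, and the ORX+DHT libraries spanned nearly the range of both. Dnajb9, a J-domain protein of the endoplasmic reticulum, stood at 52.4, 40.9 and 62.6 in Control, at 75.6, 73.3 and 67.0 in ORX and at 56.7, 67.7 and 64.2 in ORX+DHT. Neither was called.

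The comparison of ORX+DHT with Control asks how far the treated mice differed from intact ones, and limma called 0 of 71 chaperone genes, beside 0.0349% of 8595 genes. Only 1 member, Dnajc19, had an unadjusted p under 0.05 (beside 6.48% of all genes), and edgeR and DESeq2 called 0. Of the small heat shock protein genes 6 of 7 were below 0, with a median log2 difference of −0.16. The 2010 tested genes with under 3 kb of exon had a median of −0.16 and 27.2% above 0. Without Control replicate 1 the same median was 0.06, with 4 of 7 above 0, and 0 members were called (beside 0.768% of all genes), 4 of them at an unadjusted p under 0.05 (beside 9.87% of all genes). Hspb1 had a log2 difference of −0.17 (SE 0.25, limma adjusted p = 0.877) with that library and of 0.14 (SE 0.16, adjusted p = 0.836) without it. Cryab had −0.16 with it (SE 0.22, limma adjusted p = 0.875) and 0.12 without it (SE 0.10, adjusted p = 0.765), so their direction rested on that library. Hspb2 went from −0.15 (SE 0.22, limma adjusted p = 0.88) to 0.06 (SE 0.18, adjusted p = 0.946).

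Hspb6 was at 0.03 (SE 0.16, limma adjusted p = 0.964) in ORX+DHT versus Control, or 0.18 without Control replicate 1 (SE 0.09, adjusted p = 0.533). Dnajc27 was at 0.34 (SE 0.16, limma adjusted p = 0.736), or 0.20 without that library (SE 0.10, adjusted p = 0.557). Dnajc27 stood at 156, 193 and 224 in Control, all below its ORX+DHT libraries, and Control replicate 1 was here the lowest of the 9. Dnajc19, a subunit of the mitochondrial import motor, stood at 77.4, 52.0 and 41.7 in Control, at 40.2, 40.9 and 50.5 in ORX and at 30.4, 30.9 and 35.6 in ORX+DHT. Its ORX+DHT libraries were below every other library. ORX+DHT versus ORX and ORX versus Control share the ORX libraries, so a gene that is low in those libraries differs in both.

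**Figure D3:**
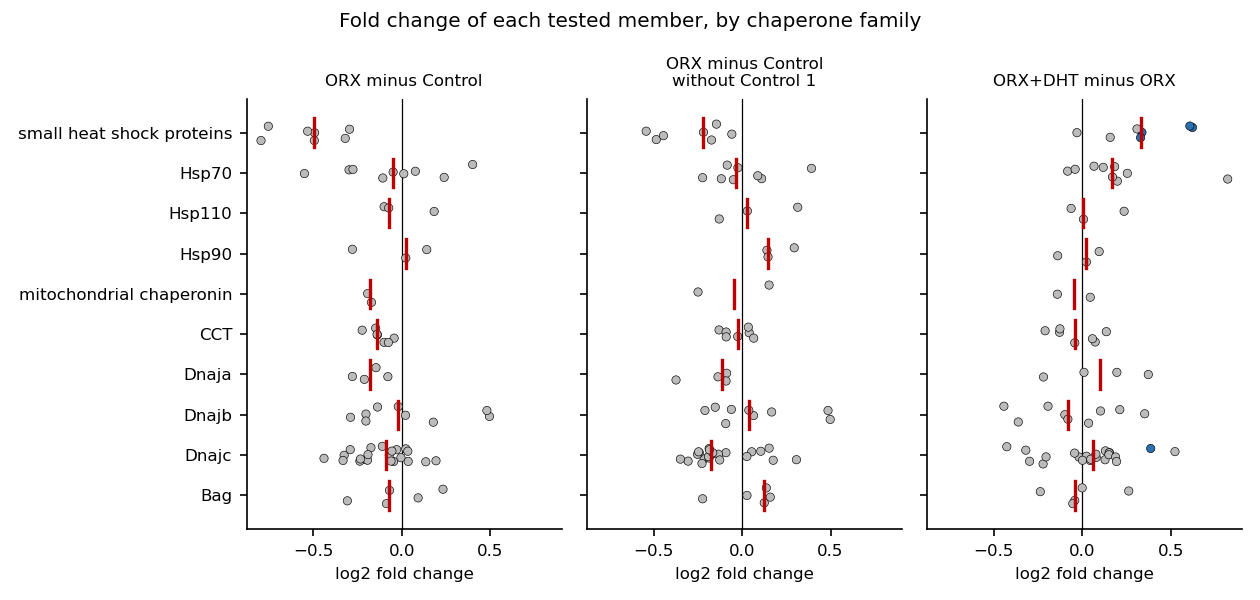
Log2 fold change of each tested member (points, blue where called by limma, grey otherwise) by chaperone family, with the family median in red, for ORX minus Control with and without Control replicate 1 and for ORX+DHT minus ORX. The blue points are the 4 small heat shock protein genes and Dnajc27 in the panel of ORX+DHT minus ORX.

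Among Hsp70 genes, 7 of 9 tested were above 0 in ORX+DHT versus ORX, with a median log2 difference of 0.17 and 0 called. Hspa8 stood at 724, 842 and 778 in ORX and at 858, 959 and 821 in ORX+DHT, with overlapping groups and a log2 difference of 0.17 (SE 0.09, limma adjusted p = 0.387). Its Control libraries stood at 1176, 784 and 913, a log2 difference of −0.28 in ORX (limma adjusted p = 0.746) that became −0.12 without Control replicate 1 (adjusted p = 0.734). Hspa5 (BiP, the Hsp70 of the endoplasmic reticulum) ranged from 251 to 330 over the 9 libraries, and its log2 differences were 0.07 in ORX+DHT versus ORX (limma adjusted p = 0.833) and −0.11 in ORX versus Control (adjusted p = 0.885), or −0.02 without Control replicate 1 (adjusted p = 0.969). Hspa9 stood at 983, 1026 and 1090 in Control, at 955, 1013 and 1026 in ORX and at 1157, 1034 and 1060 in ORX+DHT, within a narrow range throughout.

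Hspa2, a testis-rich Hsp70 that is low in muscle, had the largest log2 difference of the family in ORX+DHT versus ORX without passing the test. It stood at 8.83, 12.8 and 7.44 in ORX and at 10.1, 17.4 and 29.6 in ORX+DHT, and its groups overlapped. Hspa1l stood at 23.7, 12.2 and 10.9 in Control against 10.8, 9.38 and 9.10 in ORX, and Hspa13 ranged from 9.99 to 30.4 over the 9 libraries. The stress-inducible Hspa1a stood at 6.24, 1.11 and 5.96 in Control, at 1.96, 0 and 0.827 in ORX and at 2.03, 4.83 and 0.988 in ORX+DHT. Hspa1b stood at 6.24, 6.63 and 1.99, then at 0, 3.41 and 2.48, then at 3.04, 4.83 and 1.98. With these counts both copies were too low for a comparison.

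The Hsp110 genes, exchange factors of Hsp70, and the Hsp90 genes had 0 called in any comparison. Hspa4 stood at 219, 212 and 217 in ORX and at 267, 246 and 252 in ORX+DHT, apart from each other though not past the threshold, with Control between them at 222, 244 and 228. Hspa4l, also of this family, was low and ranged from 13.3 to 33.4 over the 9 libraries. Hsph1 had a log2 difference of 0.01 in ORX+DHT versus ORX (SE 0.13, limma adjusted p = 0.99) and of −0.07 in ORX versus Control (SE 0.17, adjusted p = 0.937), or 0.03 without Control replicate 1 (SE 0.14, adjusted p = 0.969). Hsp90ab1 stood at 2302, 1781 and 1779 in Control, at 1810, 2008 and 2105 in ORX and at 1904, 2047 and 2058 in ORX+DHT. Its log2 differences were 0.02 in ORX+DHT versus ORX (SE 0.08, limma adjusted p = 0.937) and 0.02 in ORX versus Control (SE 0.15, adjusted p = 0.981), or 0.15 without Control replicate 1 (SE 0.09, adjusted p = 0.598).

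The inducible Hsp90aa1 stood at 94.9 in Control replicate 1 and at 37.3 to 59.0 in the other 8 libraries. Its log2 difference in ORX versus Control was −0.28 (SE 0.31, limma adjusted p = 0.84) and turned to 0.14 (SE 0.20, adjusted p = 0.854) without that library, and in ORX+DHT versus ORX it was 0.10 (SE 0.19, adjusted p = 0.876). Hsp90b1 (Grp94, the Hsp90 of the endoplasmic reticulum) stood at 191, 127 and 151 in Control, at 153, 171 and 188 in ORX and at 145, 180 and 141 in ORX+DHT. Its log2 difference was −0.14 in ORX+DHT versus ORX (SE 0.12, limma adjusted p = 0.678) and 0.14 in ORX versus Control (SE 0.18, adjusted p = 0.871), or 0.29 without Control replicate 1 (SE 0.13, adjusted p = 0.437). Without Control replicate 1 all 3 Hsp90 genes were above 0 in ORX versus Control.

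The chaperonins had 0 called members. Hspd1 (Hsp60), the ring of the mitochondrial chaperonin, stood at 260, 280 and 305 in Control, at 232, 221 and 290 in ORX and at 258, 260 and 242 in ORX+DHT. Its log2 difference was 0.05 in ORX+DHT versus ORX (SE 0.11, limma adjusted p = 0.901) and −0.19 in ORX versus Control (SE 0.16, adjusted p = 0.801), or −0.25 without Control replicate 1 (SE 0.13, adjusted p = 0.515). Hspe1 (Hsp10), the lid of that ring, stood at 101 in Control replicate 1 and at 43.1 to 60.6 in the other 8 libraries. In ORX versus Control it was at −0.17 (SE 0.27, limma adjusted p = 0.903), and at 0.15 without that library (SE 0.18, adjusted p = 0.826), and in ORX+DHT versus ORX at −0.14 (SE 0.15, adjusted p = 0.743).

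The cytosolic chaperonin CCT, which folds actin and tubulin, had 7 of 7 tested subunits below 0 in ORX versus Control (median −0.14), a count that became 4 of 7 without Control replicate 1. In ORX+DHT versus Control 7 of 7 were also below 0 (median −0.17), and 4 of 7 without that library. Cct2 stood at 192, 223 and 188 in Control, at 178, 200 and 184 in ORX and at 159, 163 and 162 in ORX+DHT, with the ORX+DHT libraries below all others. Cct5 stood at 297 in Control replicate 1 and at 165 to 218 in the other 8 libraries.

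The J-domain genes held 35 tested members, 4 of Dnaja, 9 of Dnajb and 22 of Dnajc, of which Dnajc27 was called in ORX+DHT versus ORX. In that comparison 3 of 4 Dnaja genes, 4 of 9 Dnajb genes and 15 of 22 Dnajc genes were above 0, with medians of 0.10, −0.08 and 0.06. Dnaja4 stood at 90.3, 98.9 and 76.1 in ORX and at 129, 104 and 111 in ORX+DHT, and at 93.6, 118 and 110 in Control. Its ORX and ORX+DHT groups did not overlap. Dnajb1 (Hsp40), the inducible partner of Hsp70, was low, from 6.77 to 16.2 over the 9 libraries, with a log2 difference of −0.44 in ORX+DHT versus ORX (SE 0.32, limma adjusted p = 0.589) and of 0.18 in ORX versus Control (SE 0.30, adjusted p = 0.911), or 0.17 without Control replicate 1 (SE 0.33, adjusted p = 0.909).

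Dnajc1, of the endoplasmic reticulum membrane, had the largest log2 difference among Dnajc genes in ORX+DHT versus ORX without passing the test. It stood at 28.5, 17.9 and 36.4 in ORX and at 36.5, 38.7 and 40.5 in ORX+DHT, where the highest ORX library nearly met the lowest treated one. Dnajc15, a mitochondrial J-domain protein, stood at 126, 73.0 and 76.5 in Control and at 68.7, 61.4 and 66.2 in ORX. Dnaja1 had means of 63.2 ± 19.9 for Control, 55.1 ± 1.14 for ORX and 47.7 ± 8.82 for ORX+DHT (SD, n = 3 each). Dnaja2, the most abundant of its family, ranged from 363 to 451 and Dnajb5 from 261 to 372.

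Of the BAG genes 5 were tested and 0 called. Bag3, which links Hspb8 to Hsp70 at the Z-disc, stood at 208, 244 and 250 in ORX and at 278, 286 and 276 in ORX+DHT, apart from each other, with a log2 difference of 0.26 (SE 0.10, limma adjusted p = 0.191). Control stood at 325, 253 and 293, above all ORX libraries, a log2 difference of −0.31 in ORX (SE 0.15, limma adjusted p = 0.695) and of −0.22 without Control replicate 1 (adjusted p = 0.546). Bag1, an exchange factor of Hsp70 that also binds nuclear receptors, stood at 391, 254 and 231 in Control, at 259, 281 and 274 in ORX and at 246, 221 and 222 in ORX+DHT. Here the ORX+DHT libraries were below all ORX libraries, the opposite order to Bag3.

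Over all families, the ORX and ORX+DHT libraries of 18 chaperone genes did not overlap, 15 with ORX+DHT higher and 3 with ORX+DHT lower. Among all genes tested 19.5% did not overlap, 10.4% higher and 9.13% lower. In ORX+DHT versus Control 7 members did not overlap, 3 higher and 4 lower, beside 14% of all genes (6.86% higher and 7.12% lower). Without Control replicate 1 these were 8 higher and 8 lower, beside 26.1% of all genes (12.2% higher and 13.9% lower).

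**Figure D4:**
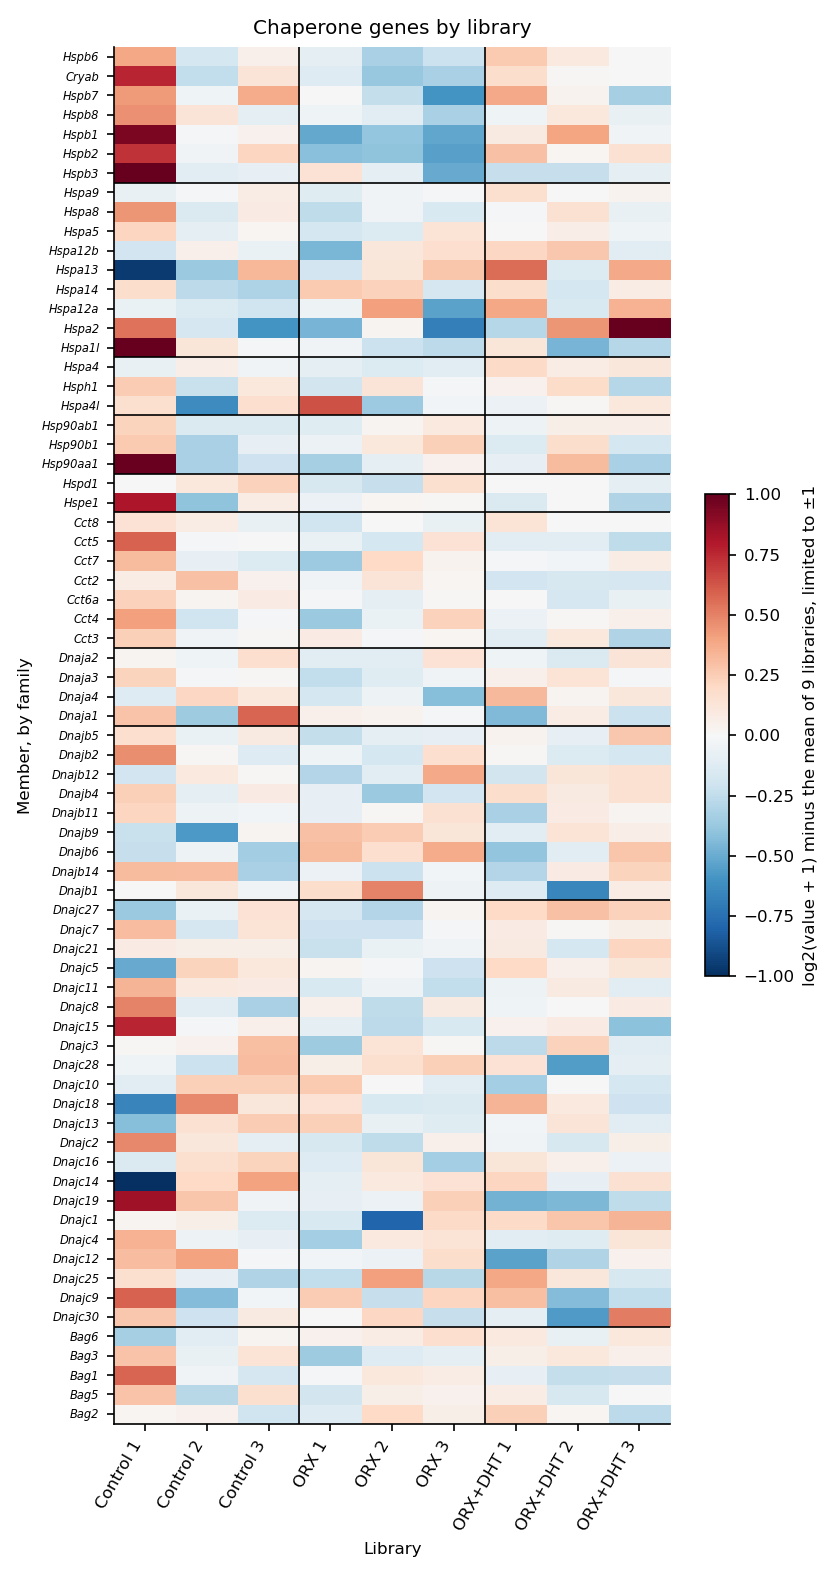
Each tested chaperone gene (rows, by family, black lines between families) in each of the 9 libraries (columns), as log2(normalised count + 1) minus the gene's mean over the 9 libraries, with the colour scale ending at −1 and 1. The column of Control replicate 1 is red for most rows, and the top block of small heat shock proteins is mostly blue in the ORX columns.

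Other genes of the same machinery were counted from a list of 55, of which 51 were tested in each comparison. In ORX+DHT versus ORX 4 of the 51 had an unadjusted p under 0.05, beside 14.3% of all genes. Only 1 was called in that comparison, beside 4.08% of all genes, namely Fkbp5, an Hsp90 co-chaperone of steroid receptors. It stood at 74.9, 89.6 and 57.6 in Control, at 28.5, 22.2 and 42.2 in ORX and at 102, 107 and 111 in ORX+DHT, a log2 difference of 1.80 (SE 0.19, limma adjusted p = 8.03e-06). In both comparisons with Control limma called 0 of the 51, with 3 at an unadjusted p under 0.05 in each, beside 7.21% and 6.48% of all genes. Without Control replicate 1 limma called 1 of the 51 in ORX versus Control, Fkbp5, and 0 in ORX+DHT versus Control, with 2 and 4 at an unadjusted p under 0.05 (beside 10.6% and 9.87% of all genes). Fkbp5 was at −1.26 in ORX versus Control with all libraries (SE 0.26, limma adjusted p = 0.182), with groups that did not overlap. It passed in 3 of 16 alternatives, without Control replicate 1 (−1.24, adjusted p = 0.0489), with all 9 libraries in 1 fit (0.0291) and with DESeq2 (0.0224), and the adjusted p reached 0.744 without ORX replicate 2. The 51 had median log2 differences of −0.01 in ORX+DHT versus ORX, −0.09 in ORX versus Control (−0.02 without Control replicate 1) and −0.12 in ORX+DHT versus Control (−0.0064 without it).

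The heat shock factors themselves were not called. In ORX+DHT versus ORX 2 of the 4 tested genes of their list had an unadjusted p under 0.05, beside 14.3% of all genes. These 2 went in opposite directions. Hsf2 stood at 39.3, 41.8 and 44.7 in ORX and at 53.7, 56.1 and 61.3 in ORX+DHT, apart from each other, with a log2 difference of 0.44 (SE 0.16, limma adjusted p = 0.164). Hsf4 stood at 14.7, 10.2 and 14.9 in ORX and at 13.2, 6.77 and 2.96 in ORX+DHT, with overlapping groups and a log2 difference of −0.90 (SE 0.42, limma adjusted p = 0.337). Hsf1 stood at 94.9, 64.1 and 71.5 in Control, at 83.4, 81.0 and 82.7 in ORX and at 92.2, 84.1 and 78.1 in ORX+DHT. The mitochondrial and endoplasmic reticulum lists held 8 and 14 tested genes, and in ORX+DHT versus ORX 4 and 5 of them were above 0. The prefoldin and chaperonin list, which holds the CCT subunit Tcp1 not matched by the naming rule, had 4 of 7 above 0.

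Over the 9 libraries the genes whose log2 levels followed Hspb1 most closely among the 8631 tested were Smpx (Pearson's r = 0.974), a small muscle protein, Asna1 (0.955) and Bsg (0.953). Among the small heat shock proteins, r with Hspb1 was 0.91 for Hspb2, 0.88 for Cryab, 0.87 for Hspb8, 0.84 for Hspb6, 0.69 for Hspb3 and 0.67 for Hspb7. Without Control replicate 1 these were 0.82, 0.68, 0.67, 0.70, −0.07 and 0.56 over 8 libraries. The closest pair was Cryab and Hspb6, at 0.94 with and 0.96 without that library. These values describe 9 libraries in 3 groups and share Control replicate 1.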

How the data were processed

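Polyadenylated RNA of 9 tibialis anterior muscle libraries (500 ng each) was sequenced with a stranded kit, per the labels' protocols. Trim Galore 0.6.7, HISAT2 2.2.1, featureCounts 2.0.1, DESeq2 1.36.0 and the build GRCm38 are named in the submitters' processing notes; the annotation and strand setting used for counting are not given in the sources used here. The authors deposited 2 tables of normalised counts of protein-coding genes, a signal in which each library's reads are divided by 1 scaling factor. In every column 100% of values were whole multiples of 1 step (tolerance 0.01), so reads were recovered by division. Their median-of-ratios factors equalled the deposited scaling. Columns named sham were taken as Control by replicate number, and 0 columns were left unmapped.

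Each table was fitted on its own (ORX versus Control, and ORX+DHT versus ORX), and ORX+DHT versus Control after rescaling the 14300 shared genes of all 9 libraries by median of ratios. limma 3.58.1 in R 4.3.3 (lmFit, eBayes with a trend) was fitted to log2(value + 1) of genes with a mean of at least 10, with two-sided p-values adjusted by Benjamini-Hochberg over all genes. The log2(value + 1) scale understates changes of low genes. The alternatives were other pseudocounts, no filter, TMM and quantile scaling, all libraries in 1 fit, a replicate block, edgeR 4.0.16 and DESeq2 1.42.0 on the recovered reads, each library left out, and a correction for exon length, the last chosen after seeing the data. The fits were tested on simulated data. Gene positions and exon lengths came from GENCODE M21 (GRCm38) and promoters from RefSeq (GRCm38.p6). Fold changes are given for called genes and for Hspb1, Cryab, Hspa5, Hspa8, Hsph1, the Hsp90 genes, Hspd1, Hspe1, Dnajb1 and Bag3. Levels are given for Hspa1a, Hspa1b, family leaders per kb and the largest differences of each family. Other genes given by level were chosen after their values were seen. The members and lists were chosen with earlier results of these data known. The p-values measure the spread between labelled biological replicates. The values of 1 low member are not reported here.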

Additional observations from a re-analysis of the deposited data

How the results depend on the processing

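Over the alternatives, 637 values of named genes kept their direction and side of the threshold, 41 of the 5 called genes kept their direction without passing, 47 changed sign, and 6 levels per kb moved by more than the spread with the longest transcript. For these and for the counts that follow, the cause was not tested. In ORX versus Control the 5 genes called became 16 with no filter, 23 with all 9 libraries in 1 fit, 27 with DESeq2, 18 with the length correction and 1 to 51 with 1 library left out. In ORX+DHT versus ORX the 358 became 123 with all 9 libraries, 225 with DESeq2, 571 with the replicate block and 223 to 350 with 1 library left out, and the 5 chaperone genes became 2 with no filter, 1 with quantile scaling, 0 with all 9 libraries, 0 with DESeq2 and 0 to 2 with 1 library left out. In ORX+DHT versus Control the 3 became 21 with no filter, 6 with quantile scaling, 11 with all 9 libraries, 13 with DESeq2, 14 with the length correction and 0 to 66 with 1 library left out. With 1 library left out, the median of the chaperone genes was between −0.18 and −0.09 in ORX versus Control. For ORX+DHT versus ORX it was between 0.0078 (without ORX replicate 1) and 0.082, and for ORX+DHT versus Control between −0.15 and 0.028 (without Control replicate 1).

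With the replicate block, 6 chaperone genes were called in ORX+DHT versus ORX, Hspb7 being added. Deviations of same-numbered libraries correlated at 0.06, 0.07 and 0.15 there, each best with its own number. In ORX versus Control they correlated at −0.17, 0.06 and −0.11. The labels give no pairing, and whether same-numbered libraries share more than a number was not tested. The block called 0 chaperone genes in the comparisons with Control.

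Small log2 differences changed sign. Under other settings these were Dnajc27 at 0.019 (quantile) and Hspe1 at 0.045 (length) in ORX versus Control; Hsph1 at −0.00049 (TMM), −0.0042 (quantile) and −0.016 (length) and Hsp90ab1 at −0.00022 (quantile) in ORX+DHT versus ORX; and, in ORX+DHT versus Control, Hsp90b1 at −0.0014 (TMM), −0.0088 (edgeR) and −0.0079 (DESeq2), Bag3 at 0.0083 (quantile) and 0.055 (length), Cryab at 0.067, Hspb1 at 0.11 and Hspb2 at 0.17 (length). With 1 library left out, ranges that crossed 0 in ORX versus Control were −0.18 to 0.073 for Dnajc27, −0.52 to 0.14 for Hsp90aa1, −0.043 to 0.15 for Hsp90ab1, −0.45 to 0.15 for Hspe1 and −0.21 to 0.030 for Hsph1. In ORX+DHT versus ORX they were −0.077 to 0.24 for Hsp90aa1, −0.038 to 0.070 for Hsp90ab1, −0.030 to 0.16 for Hspd1 and −0.095 to 0.14 for Hsph1. In ORX+DHT versus Control they were −0.14 to 0.039 for Bag3, −0.39 to 0.12 for Cryab, −0.42 to 0.24 for Hsp90aa1, −0.017 to 0.17 for Hsp90ab1, −0.14 to 0.16 for Hsp90b1, −0.11 to 0.042 for Hspa5, −0.24 to 0.053 for Hspa8, −0.34 to 0.14 for Hspb1, −0.31 to 0.065 for Hspb2, −0.10 to 0.18 for Hspb6, −0.59 to 0.011 for Hspe1 and −0.20 to 0.066 for Hsph1.

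Hspa1a and Hspa1b had 23 and 30 reads over the 9 libraries, too few for a comparison of groups. The part of depth, of low expression and of reads shared by the near-identical copies in these counts was not tested.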
